A study of Mus musculus with 38 samples.

Results

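Serpins are a family of serine protease inhibitors and their non-inhibitory relatives, and the liver secretes many of them into blood. The genes described here were picked by name: every gene of the deposited count table whose symbol is Serpin followed by a clade letter a to i and a number, and Serping1. The rule gave 61 of 21954 genes. Of these, 23 lie together on chromosome 12, between 103614786 and 104414329 (GRCm38), where the Serpina1 and Serpina3 copies are found, 15 on chromosome 13 and 13 on chromosome 1. By clade, 24 belong to clade a, 26 to clade b and 11 to clades c to i. The data are 38 RNA-seq libraries from livers of female wild-type C57BL/6 mice, 1 library per sample. Ad libitum fed mice were sampled at 0 h (n = 3), 6 h (n = 2), 14 h (n = 3) and 22 h (n = 3). Mice under calorie restriction were sampled at 0 h (n = 2), 6 h (n = 3), 14 h (n = 3) and 22 h (n = 4), and fasted mice at 6, 14 and 22 h (n = 3 each). A last pair of groups, each with n = 3, holds calorie-restricted mice at circadian time ZT18, labelled as fed or as having missed a meal. The labels do not say from what event the hours are counted, how strong the restriction was or what the mice were last given. The age field differs in each of the 38 samples and climbs in sample order from 5 to 44 months, so it may not give true ages and was not used. Nothing says that replicates came from separate animals, so the p-values measure the spread between these samples, which may be technical.

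A typical inhibitory serpin exposes a reactive centre loop as bait. The target protease cleaves the loop, the serpin changes its fold, and the protease is carried along and trapped in a covalent complex. The short stretch around the cleaved bond decides which protease is caught, so that close copies with different loops can have different targets. Some members inhibit nothing: they carry hormones in blood or act as chaperones. In mice the single human gene for alpha-1-antitrypsin corresponds to a cluster of Serpina1 copies, and the single human gene for alpha-1-antichymotrypsin to a cluster of Serpina3 copies.

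The 5 Serpina1 copies that could be measured are near-identical in sequence and differ widely in how much they varied between these livers, so their start regions are shown side by side. The sequences are RefSeq's, build GRCm38.p6, minus strand, written 5′ to 3′, and span chr12:103863575-103863812 (Serpina1a), chr12:103738150-103738389 (Serpina1b), chr12:103904912-103905149 (Serpina1c), chr12:103773584-103773822 (Serpina1d) and chr12:103956910-103957147 (Serpina1e). Capitals mark bases found in only that copy of the 5, at aligned positions where no copy has a gap. Inserted bases are thus not marked, and the stretch is 238 to 240 bases long.
Serpina1a: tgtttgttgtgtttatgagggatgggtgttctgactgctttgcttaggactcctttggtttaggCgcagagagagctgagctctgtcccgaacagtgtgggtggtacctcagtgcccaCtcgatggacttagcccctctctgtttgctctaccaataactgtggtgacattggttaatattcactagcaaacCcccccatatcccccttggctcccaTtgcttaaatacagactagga
Serpina1b: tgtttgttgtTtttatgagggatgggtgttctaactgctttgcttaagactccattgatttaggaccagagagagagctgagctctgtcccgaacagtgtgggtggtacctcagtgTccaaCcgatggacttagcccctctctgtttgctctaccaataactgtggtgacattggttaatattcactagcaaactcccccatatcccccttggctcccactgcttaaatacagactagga
Serpina1c: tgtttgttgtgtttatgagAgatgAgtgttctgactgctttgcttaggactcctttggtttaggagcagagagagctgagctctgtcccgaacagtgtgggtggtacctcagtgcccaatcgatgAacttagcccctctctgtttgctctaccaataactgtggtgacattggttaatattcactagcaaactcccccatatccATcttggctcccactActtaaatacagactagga
Serpina1d: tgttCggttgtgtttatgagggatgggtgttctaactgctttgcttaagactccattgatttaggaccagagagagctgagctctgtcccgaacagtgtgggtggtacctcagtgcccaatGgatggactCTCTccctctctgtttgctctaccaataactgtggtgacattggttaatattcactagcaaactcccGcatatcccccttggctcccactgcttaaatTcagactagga
Serpina1e: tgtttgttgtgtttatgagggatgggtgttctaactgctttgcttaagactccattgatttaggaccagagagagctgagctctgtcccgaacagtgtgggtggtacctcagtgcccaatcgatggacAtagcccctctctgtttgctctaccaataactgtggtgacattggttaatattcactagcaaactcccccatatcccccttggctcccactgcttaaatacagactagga
Aligned pairwise, these stretches were 91.6% (Serpina1c and Serpina1d) to 97.5% (Serpina1b and Serpina1e) identical. Serpina1e, the copy whose level varied most, had 1 marked base, and Serpina1d, which varied little, had 8, inserted bases not counted. By the 1 RefSeq entry taken for each gene, the shared stretch lies at bases -250 to -13 from the start of Serpina1e, and at -200 to 40 in Serpina1b. Annotations differ on these starts: GENCODE vM21 begins the gene at 103958975 for Serpina1e and at 103830373 for Serpina1b, upstream of both stretches. Whether the position bears on the level was not tested. Start sites come from the annotation and were not measured in these libraries.

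The coding stretch of the reactive centre loop is shown for the same copies because it decides which protease is caught. It runs over coding bases 1153 to 1236 in Serpina1a and 1084 to 1167 in the other 4 (GENCODE vM21 transcripts), 84 bases in each, and capitals mark the 18 positions at which the copies are not all alike.
Serpina1a: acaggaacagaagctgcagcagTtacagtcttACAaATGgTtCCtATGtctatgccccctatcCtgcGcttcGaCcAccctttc
Serpina1b: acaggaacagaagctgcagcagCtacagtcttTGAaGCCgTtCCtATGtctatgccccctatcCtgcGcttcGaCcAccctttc
Serpina1c: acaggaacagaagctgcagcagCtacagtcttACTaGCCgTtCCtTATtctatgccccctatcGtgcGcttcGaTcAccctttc
Serpina1d: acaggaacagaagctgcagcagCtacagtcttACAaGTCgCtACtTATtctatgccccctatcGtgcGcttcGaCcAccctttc
Serpina1e: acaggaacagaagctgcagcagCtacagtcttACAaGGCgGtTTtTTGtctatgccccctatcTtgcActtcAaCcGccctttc
Over all aligned coding bases the copies were 96.3% to 98.5% identical. This bears on the counts, since reads of 150 bases were placed with up to 2 mismatches. Of all 150-base windows of the transcript, 70.9% in Serpina1c, 56.9% in Serpina1a, 33.7% in Serpina1d, 30.8% in Serpina1b and 27.3% in Serpina1e matched another copy within 2 mismatches. In the Serpina3 group the shares were 10.9% for Serpina3m and 8.6% for Serpina3k, which matched each other, and 6.34% for Serpina3f and 5.14% for Serpina3g, which matched each other. The other 22 measured serpins shared no such window with another measured serpin. Values of single Serpina1 copies, above all Serpina1c and Serpina1a, therefore depend on how RSEM divided shared reads, and the sum of the copies is given beside them.

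A second pair of start regions is shown because the genes varied together. The values of Serpina3c and Serpina3n, which lie apart in the Serpina3 cluster with other copies between them, had a Pearson correlation of 0.88 over the 38 libraries and of 0.78 after group means were removed, a description only, since both values come from the same libraries. RefSeq places these promoters at chr12:104153823-104154122 (Serpina3c, minus strand) and chr12:104406458-104406757 (Serpina3n, plus strand). Capitals mark a match to the glucocorticoid receptor element, searched on both strands.
Serpina3c: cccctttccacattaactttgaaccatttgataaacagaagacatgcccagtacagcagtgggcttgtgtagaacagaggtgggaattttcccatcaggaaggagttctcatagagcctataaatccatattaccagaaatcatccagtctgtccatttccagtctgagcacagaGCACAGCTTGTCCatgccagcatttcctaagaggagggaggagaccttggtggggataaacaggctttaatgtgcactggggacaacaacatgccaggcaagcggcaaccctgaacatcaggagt
Serpina3n: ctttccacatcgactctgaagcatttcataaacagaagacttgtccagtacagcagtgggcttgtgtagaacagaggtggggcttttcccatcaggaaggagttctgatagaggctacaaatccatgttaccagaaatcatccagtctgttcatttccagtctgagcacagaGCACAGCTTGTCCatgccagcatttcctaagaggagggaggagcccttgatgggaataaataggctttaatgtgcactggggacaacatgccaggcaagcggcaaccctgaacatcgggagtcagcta
The match starts 75 bases before the start site in Serpina3c and 78 before it in Serpina3n. It is uncommon: 0.475% of 32851 RefSeq promoters of this length hold one. Among the 23 measured serpins with a promoter in the table, 3 held one, the last being Serpinf2 (alpha-2-antiplasmin). Matches to the C/EBP element TTGCNNAA were found in 8 of the 23, Serpina1a, Serpina1b, Serpina1d and Serpina1e among them and Serpina1c not, against 10.8% of all promoters. The STAT element TTCNNNGAA was found in 4 (8.3% of all promoters) and the TATA box TATAAA in 3 (13.6%). The clock E-box CACGTG (7.15%) and the heat shock element (0.603%) were found in none of these windows. Each motif was searched on both strands, the letters of the STAT and heat shock elements can overlap, and a match or its absence says only which letters are in the window. The printed Serpina3c and Serpina3n stretches are alike over most of their length, and the Serpina1 start regions are near-identical. Matches in such copies need not be independent, so these counts do not measure enrichment.

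Libraries held 17131300 to 30152300 counts in genes (median 21728500). Serpins made up 2.01% to 4.49% of the counts of a library (median 2.86%), and the Serpina1 copies alone 1.38% to 2.77%. All 12 hepatocyte markers had counts in every group, with a summed level of at least 88672 CPM (counts relative to the library total, scaled by TMM). Over the 2000 most variable genes other than serpins, 4 libraries were nearest to a library of another diet: ad libitum replicate 3 at 0 h and calorie restriction replicate 3 at 14 h, at 22 h and in the fed group. The clock genes of ad libitum replicate 2 at 0 h and of replicate 2 at 22 h were nearest to a time more than 6 h away from their label. For calls between groups that rest on these 6 libraries, values without some or all of them are given with the call. Levels of 1 gene between groups are given in CPM. Levels of different genes are compared per length, in the authors' rescaled TPM.

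Per length, the serpins spanned more than 4 orders of magnitude in these livers. Serpina1b stood highest with a mean rescaled TPM of 7475 over the 38 libraries, followed by Serpina1c (5697), Serpina1a (4699) and Serpina1d (4403). Then came Serpina3k (3291), and Serpinc1 (3088), which encodes antithrombin, the main inhibitor of thrombin. Another 8 members had a mean of at least 100: Serpinf1, Serpinf2, Serping1, Serpina3m, Serpina1e, Serpina6, Serpind1 and Serpina3n. The ranges of neighbouring genes in this order overlapped, for example 2829.8 to 10118 in Serpina1c against 5179.9 to 9523 in Serpina1b. Of the 61 members, 31 passed the filter on low counts and could be tested: 17 of 24 in clade a, 5 of 26 in clade b and 9 of 11 in clades c to i. Of the 30 below it, 14 had no count in any library and 7 had 1 to 9 counts in all, and the highest total was 98 (Serpina3i). With 0 counts, a library can hold up to 3 counts of such a gene, counting error only.

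**Figure D1:**
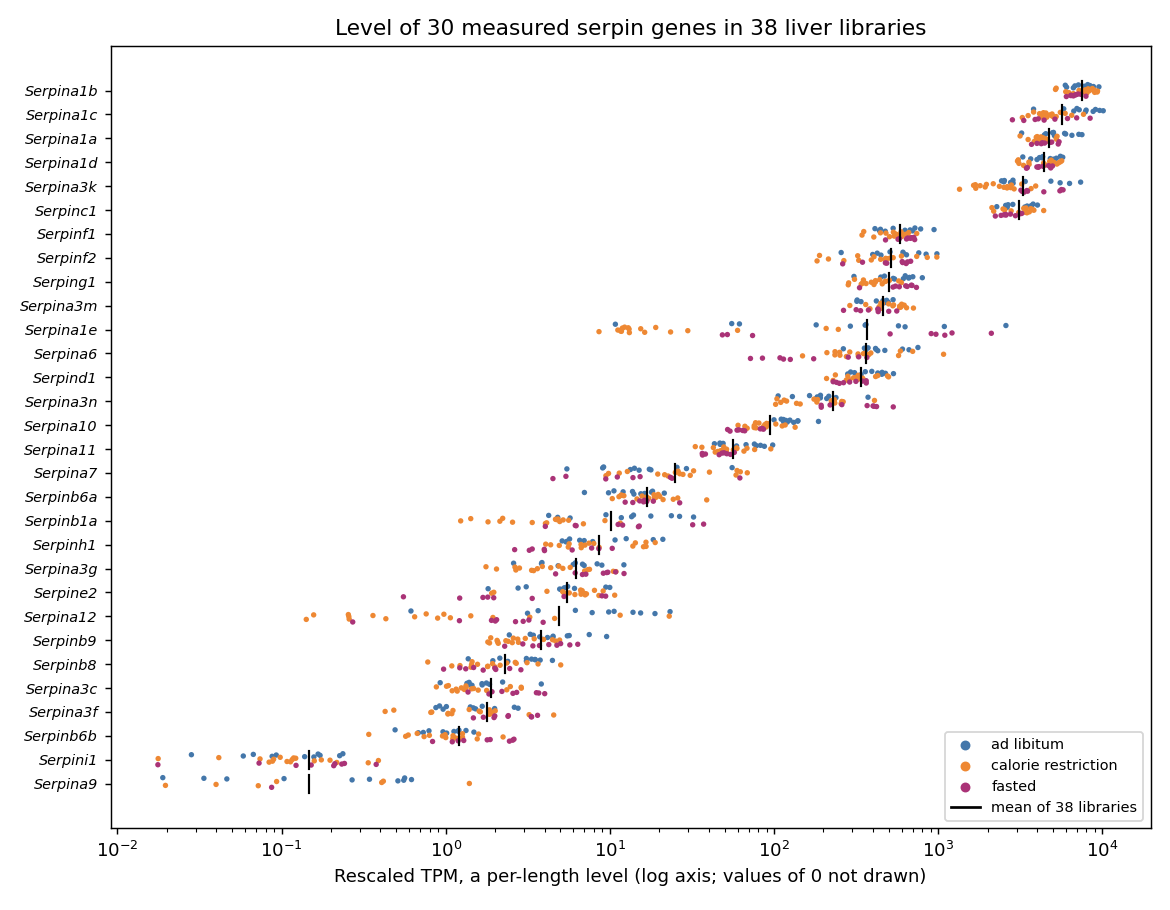
Per-length level of 30 measured serpins, as the authors' rescaled TPM on a log axis, with 1 point per library coloured by diet and a bar at the mean of 38 libraries (values of 0 are not drawn). Serpina1b has the highest mean (7475). The points of Serpina1e and Serpina12 spread over a wider range than those of Serpina1a to Serpina1d.

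The genes differed as much in spread as in level. Of the 29 members with a count in every library, 11 stayed within a 4-fold range over all 38 libraries and 8 spanned 10-fold or more. Serpina1b and Serpina1d each spanned 1.91-fold and Serpinc1 2.07-fold. The widest were Serpina1e (248-fold), Serpina12 (174-fold), Serpinb1a (30.8-fold), Serpine2 (19.1-fold), Serpina7 (18.2-fold), Serpini1 (15.3-fold), Serpina6 (14.8-fold) and Serpina3f (10.4-fold).

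Fasting lowered 10 of the 31 measured serpins at 14 h and 4 at 22 h, and none rose by the test over all libraries. All adjusted p-values come from edgeR's quasi-likelihood test over 13786 genes with Benjamini-Hochberg adjustment, and a change is called at an adjusted p under 0.05. At 6 h none of the 31 was called (1.2% of all genes were called higher and 1.13% lower), with 4 at an unadjusted p under 0.05 and 0 calls by DESeq2. Fitted on the compared libraries alone, that pair gave 2 calls, Serpina1e higher (log2 change 2.40, adjusted p = 0.00688) and Serpina12 lower (-2.80, adjusted p = 0.001). At 14 h, 10 members fell and 0 rose, where 12.7% of all genes fell and 11.8% rose. They were Serpina6, Serpina10, Serpina11, Serpina1a, Serpina1c, Serpinb1a, Serpinb8, Serpind1, Serpine2 and Serpinh1. The median log2 change of the 31 members was -0.42 against -0.0365 over all genes. At 22 h, 4 fell and 0 rose, where 5.4% of all genes fell and 6.06% rose: Serpina6, Serpina10, Serpina11 and Serpina1c. The median was then -0.19 against -0.0273.

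Beside the 14 h result stand some facts of these libraries. Across 13773 genes the change rose with transcript length (Spearman 0.40, genes not being independent), and the serpins are short, with a median of 2191 bases against 3363 over all genes. With that trend removed, 6 of the 31 were called, 5 of the 10 (Serpina6, Serpina10, Serpinb8, Serpind1 and Serpine2) and Serpinc1 (log2 change -0.71, adjusted p = 0.0384). Of the 13786 genes, 2334 were then called, 1187 of them higher. The 12 hepatocyte markers summed to 119270.0 to 139244 CPM in fasted livers and 168541 to 171775 ad libitum, without overlap, though 4 of them were called higher and 1 lower. Of 12 sinusoidal endothelial markers, none of them at 0, 9 were higher, with a summed level of 372 to 469 CPM against 118 to 248, and 4 of 10 tested exocrine pancreas markers were higher (4.27 to 61.9 against 7.07 to 17.1 CPM, 8 of 12 at 0 in the ad libitum group). Their part in the serpin changes was not tested. In bulk tissue, fewer cells of a type and less RNA per cell cannot be told apart.

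Calorie restriction gave few calls against ad libitum feeding at the same hour. None of the 31 was called at 0 h (0.21% of all genes higher, 0.268% lower), at 6 h (0% and 0%) or at 14 h (0.00725% and 0.0145%), with 4, 3 and 7 members at an unadjusted p under 0.05 and 1, 0 and 1 calls by DESeq2. At 22 h 2 fell, Serpina1e and Serpina10, and 0 rose, where 2.31% of all genes fell and 2.57% rose. Without the 4 libraries near another diet, calorie restriction against ad libitum gave 2, 0, 4 and 6 called members at 0, 6, 14 and 22 h, each of them lower. Of all genes, 2.59%, 0.0292%, 3.26% and 14% were then called, in either direction. The called members were Serpinb1a and Serpinb8 at 0 h, Serpina10, Serpina1c, Serpina1e and Serpinb1a at 14 h, and these 4 with Serpina12 and Serpina9 at 22 h. Serpina9 was then at 0 in all calorie-restricted libraries at 22 h, so that no fold is given. Ad libitum replicate 2 at 22 h was at 0 as well, so these groups overlapped. Beside the 22 h result, 6 of 12 Kupffer and macrophage markers were lower (180.3 to 458 CPM in sum against 551 to 742, none at 0), and their part was not tested.

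Against fasted mice of the same hour, calorie restriction gave 3 lower serpins at 6 h and 0 higher (3.41% and 3.39% of all genes): Serpina1e, Serpina3g and Serpinb1a. At 14 h, 5 were higher and 0 lower (9.1% and 7.97%): Serpina6, Serpine2, Serpina11, Serpina10 and Serpind1. In this pair the change also moved with transcript length (Spearman -0.33 across genes). Of 12 endothelial markers 2 were lower, Lyve1 and Pecam1 (285 to 396 CPM in sum against 372 to 469, none at 0), as were 4 of 10 tested exocrine pancreas markers (2.72 to 16.8 against 4.27 to 61.9 CPM, 8 of 12 at 0 in calorie restriction and 1 in fasting) and 1 of 12 stellate and fibroblast markers, Hgf. The summed hepatocyte markers were 148896 to 197538 against 119270.0 to 139244 CPM, and the part of these in the serpin changes was not tested. At 22 h, 1 was higher, Serpina6, and 2 lower, Serpina1e and Serpinb1a (5.13% and 4.32%). The comparisons at 1 hour share their libraries, so that the fall against ad libitum and the higher level in calorie restriction at 14 h are not independent. Without the libraries near another diet, Serpina11 was no longer called at 14 h, and Serpina1e, Serpina3k (both lower) and Serpina3m (higher) were. Calorie-restricted mice that missed a meal, against those fed, had 3 higher serpins, Serpina3f, Serpina3g and Serpinb6a, and 2 lower, Serpina10 and Serpinh1 (6.34% and 6.13% of all genes). In all, 14 of the 31 were called in at least 1 of the 11 pairs. The matching share of all genes was not counted, so this is a tally of members and no trait of the family.

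**Figure D2:**
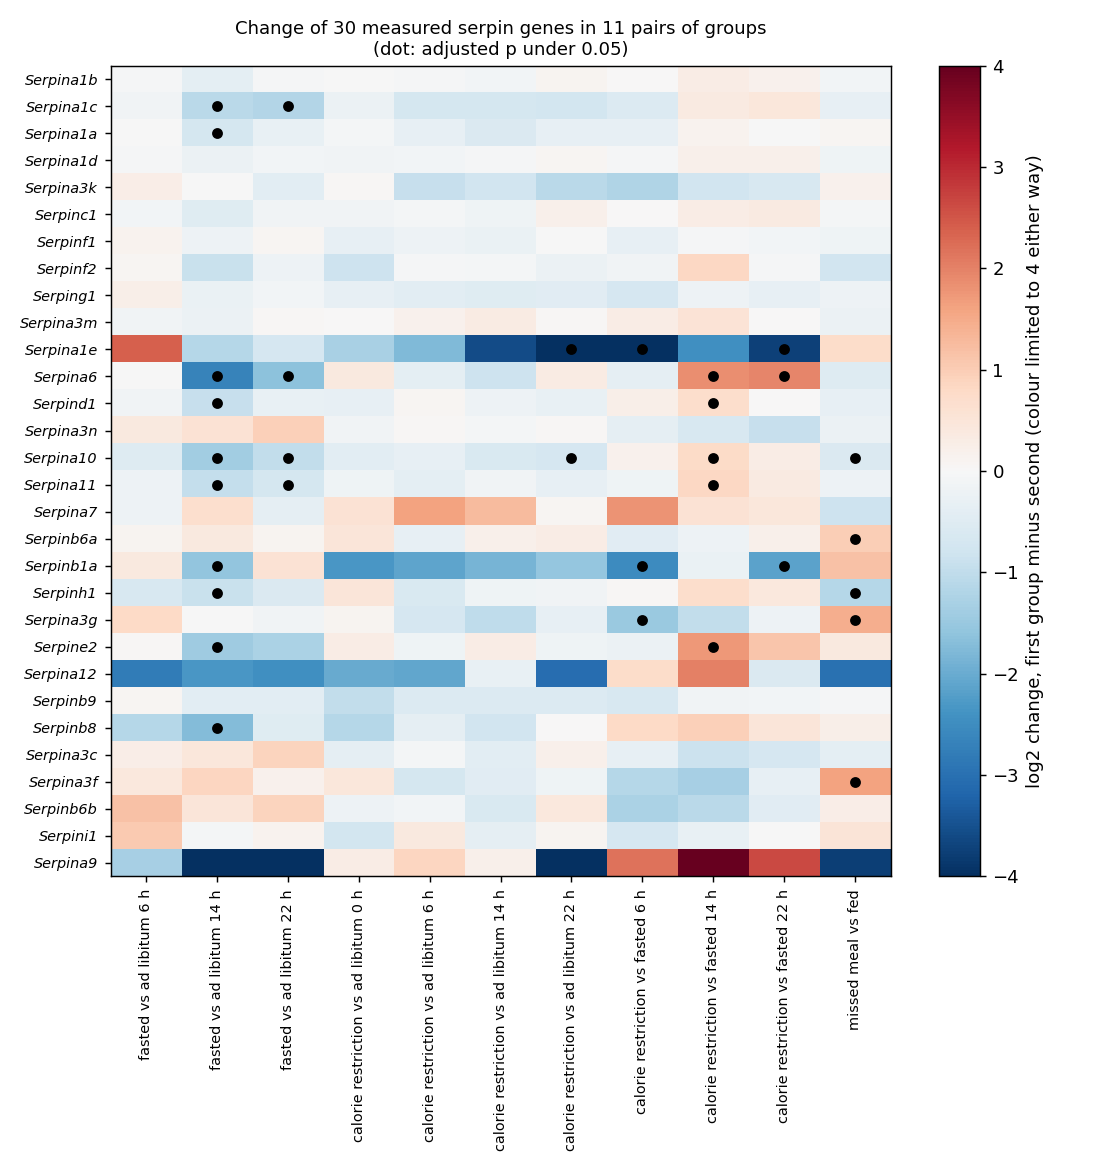
Log2 change of 30 measured serpins (rows, by mean per-length level) in each of the 11 pairs of groups (columns), first group minus second, with red for higher and blue for lower. Dots mark an adjusted p under 0.05. The fasted against ad libitum column at 14 h holds 10 dots, all on lower values. Serpina9 has at most 3.46 CPM in any library and 0 in many, so its colours rest on few counts.

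The Serpina1 copies encode mouse alpha-1-antitrypsins, abundant plasma inhibitors of elastase-like proteases. Serpina1c was 6832, 8005 and 8732 CPM in ad libitum livers at 14 h and 3481, 4355 and 3322 CPM in fasted livers. The groups did not overlap, and the log2 change was -1.08 ± 0.26 (SE), adjusted p = 0.00339. At 22 h it was 5656, 7533 and 6633 CPM ad libitum and 2364, 3745 and 2756 CPM fasted, again apart (-1.16 ± 0.26 (SE), adjusted p = 0.00445). Leaving out any 1 library kept both calls, and with the length trend removed they were lost (adjusted p = 0.122 and 0.0583). Serpina1a was 5117, 5961 and 6468 CPM ad libitum and 3672, 3755 and 3397 CPM fasted at 14 h. These did not overlap either (-0.70 ± 0.21 (SE), adjusted p = 0.0163), but the call was lost without ad libitum replicate 3 or fasted replicate 3 (adjusted p = 0.0752 and 0.0623). Serpina1b and Serpina1d were called in none of the 11 pairs. Their group means ranged from 5761 to 7613 CPM and from 3386 to 4226 CPM.

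Summed over the copies, Serpina1 counts were 22900.3 to 28395 CPM in ad libitum livers at 14 h and 15989 to 18014 CPM in fasted ones. The sum, in which reads shared between copies do not matter, fell with fasting at 14 h (log2 change -0.63 ± 0.22 (SE), adjusted p = 0.0342) and was called in no other pair. At 22 h it was -0.40 ± 0.22 (SE), adjusted p = 0.24.

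Serpina1e varied far more than the other copies. It was 49.1, 52.6 and 10.5 CPM in ad libitum livers at 0 h, 295 and 148 at 6 h, 298, 2076 and 480.1 at 14 h and 242, 895 and 512 at 22 h. In calorie restriction it was 11.9 and 18.6 CPM at 0 h, 12.4, 11.9 and 172 at 6 h, 14.9, 12.8 and 209.7 at 14 h and 11.3, 11.0, 52.0 and 27.2 at 22 h. Fed and missed-meal livers had 11.6, 11.4 and 8.37 and 23.4, 15.9 and 13.0 CPM. Of the 18 calorie-restricted libraries 15 thus stood between 8.37 and 27.2 CPM. Replicate 3 at 22 h stood at 52.0 CPM, and replicate 3 at 6 h and replicate 3 at 14 h stood far above, in the range of the ad libitum libraries at 6 h. Replicate 3 at 14 h was also nearest to a library of another diet over the other genes. Fasted livers had 989.6, 1742 and 748 CPM at 6 h, 432, 805 and 50.7 at 14 h and 47.3, 908 and 68.7 at 22 h, with values of both kinds within 1 group.

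Calorie restriction had less Serpina1e than ad libitum feeding at 22 h (log2 change -4.43 ± 1.08 (SE), adjusted p = 0.017, no overlap) and than fasting at 6 h (-4.15 ± 1.2 (SE), adjusted p = 0.031, no overlap). Against fasting at 22 h it was -3.75 ± 1.05 (SE), adjusted p = 0.0212, with overlapping libraries. Each of these 3 calls was lost when some single library was left out. At 22 h against ad libitum these were ad libitum replicate 2 and calorie restriction replicate 1 (adjusted p = 0.0532 to 0.0665). At 6 h against fasting they were calorie restriction replicates 1 and 2 and fasted replicates 1 and 2 (0.0565 to 0.148), and the change ran from -6.56 without calorie restriction replicate 3 to -3.65. At 22 h against fasting it was -1.2 without fasted replicate 2 (adjusted p = 0.537), and the calls without calorie restriction replicates 1 and 2 were lost as well (0.0635 and 0.0717). Without calorie restriction replicate 3 at 22 h, which held 52.0 CPM, the change at that hour was -5.06 against ad libitum and -4.37 against fasting. Without the libraries of another clock time, the call at 22 h against ad libitum was lost (-3.88, adjusted p = 0.0562). At 14 h the change against ad libitum was -3.59 ± 1.17 (adjusted p = 0.3) with all libraries and -6.09 (adjusted p = 0.0177) without those near another diet. Its share of the Serpina1 counts of a library ran from 0.0506% to 7.40%, with a median of 0.298%.

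Serpina12, also called vaspin, lies in the same cluster on chromosome 12 and spread almost as far. It is named here after its values were seen, since it was called in none of the 11 pairs. In ad libitum livers it was 15.2, 9.11 and 1.504 CPM at 0 h. At later hours these livers had 26.2 and 58.0 CPM (6 h), 25.1, 33.9 and 19.8 (14 h) and 38.7, 7.94 and 47.2 (22 h). Calorie restriction had 1.85 and 2.43 CPM at 0 h. Both values lay above ad libitum replicate 3 of that hour, a library nearest to another diet, and below the other ad libitum ones. Later values were 0.626, 0.392 and 29.0 CPM at 6 h, 0.891, 3.56 and 59.1 at 14 h and 0.643, 1.60, 8.09 and 4.74 at 22 h. As in Serpina1e, replicate 3 of calorie restriction at 6 h and at 14 h stood with the ad libitum libraries. Fasted livers had 5.10, 8.14 and 4.80 CPM at 6 h, 3.04, 5.04 and 7.48 at 14 h and 6.58, 0.683 and 9.66 at 22 h, so that low values were not limited to calorie restriction. At 14 h the fasted libraries lay below all ad libitum ones, a change not called over all libraries (-2.34 ± 1.17 (SE), adjusted p = 0.148) and called on the compared libraries alone (adjusted p = 0.00226). At 22 h the change under calorie restriction against ad libitum was -3.04 ± 1.08 (SE), adjusted p = 0.0925, and without the libraries near another diet it was -3.75 (adjusted p = 0.0127). Missed-meal livers had 1.09, 0.643 and 0.34 CPM against 2.70, 2.19 and 11.7 in fed ones, which did not overlap (-3.0 ± 1.38 (SE), adjusted p = 0.159). On the compared libraries alone that change was called (adjusted p = 0.0166).

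**Figure D3:**
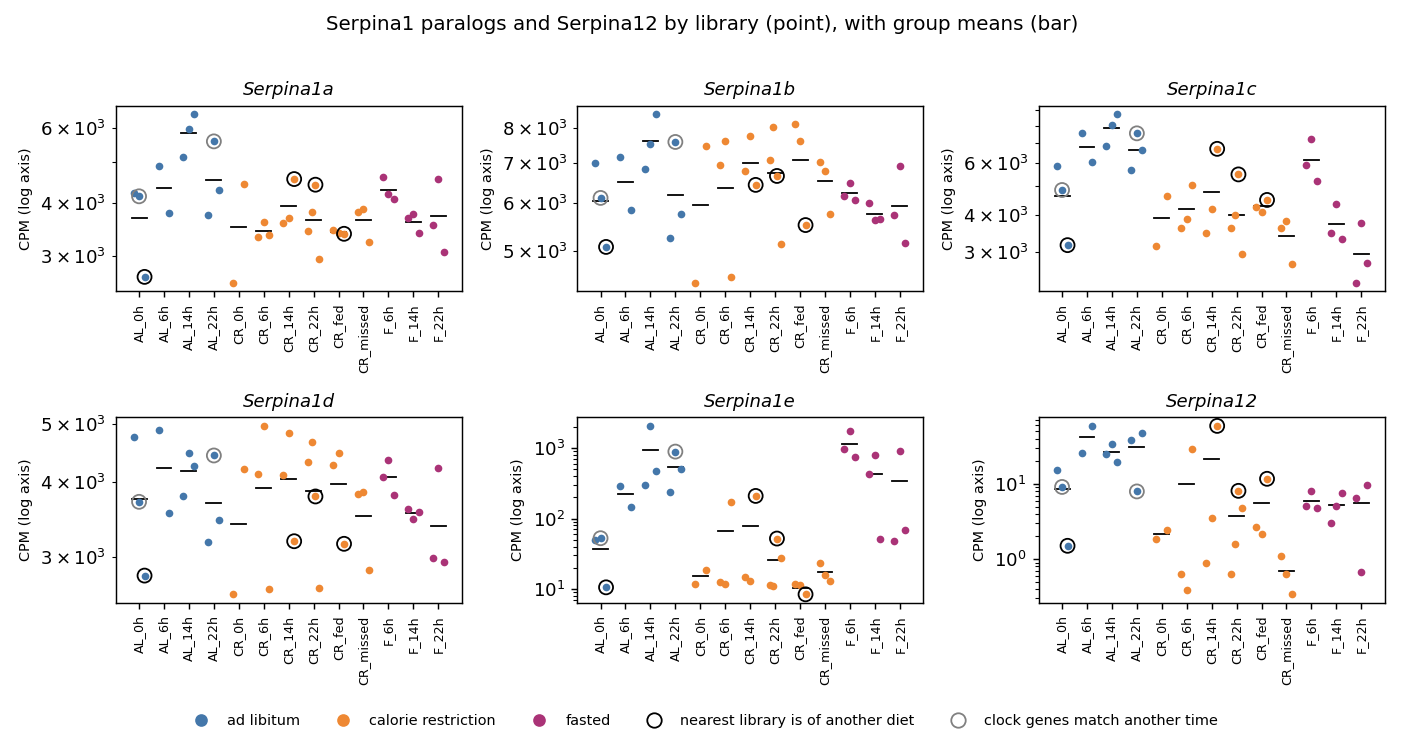
CPM of the Serpina1 copies and Serpina12 by group, with 1 point per library, bars at group means and log axes whose range differs between panels. AL, CR and F are ad libitum, calorie restriction and fasted, and rings mark the libraries that stand apart. Serpina1b and Serpina1d stay in a narrow band, while Serpina1e and Serpina12 are low in most calorie-restricted libraries and high in replicate 3 at 6 h and at 14 h.

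Among the hormone carriers, Serpina6 had the largest called fall of any serpin at 14 h of fasting. It encodes corticosteroid-binding globulin, which carries glucocorticoids in plasma. Ad libitum livers had 627, 419 and 689.8 CPM at 14 h and fasted livers 112, 86.9 and 73.9 CPM. The highest fasted library stood far below the lowest ad libitum one (-2.67 ± 0.41 (SE), adjusted p = 5.33e-05). At 22 h the values were 369, 488 and 435 CPM ad libitum and 176, 116 and 126 CPM fasted, also apart (-1.63 ± 0.40 (SE), adjusted p = 0.00778). At 6 h they were 416 and 267 CPM and 334, 292 and 377 CPM and overlapped (-0.03 ± 0.43 (SE), adjusted p = 0.984).

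At 14 and 22 h, calorie-restricted livers did not share the low Serpina6 of fasted ones. They had 213, 397 and 377 CPM at 14 h (1.85 ± 0.40 (SE), adjusted p = 0.00195, against fasted) and 351, 329, 1093 and 379.9 CPM at 22 h (1.95 ± 0.39 (SE), adjusted p = 0.00149), with no overlap at either hour. The value of 1093 CPM at 22 h belongs to replicate 3, and without it the change was 1.34, still called. Against ad libitum, calorie restriction was -0.82 ± 0.39 at 14 h and 0.32 ± 0.36 at 22 h (adjusted p = 0.506 and 0.668). These calls of Serpina6 against fasting, and those of fasting against ad libitum, held when any 1 library was left out. Within fasting, Serpina6 changed over time (adjusted p = 0.0114). Whether its fasting effect differed between hours was not called (adjusted p = 0.173), and was called without the libraries near another diet (adjusted p = 0.011). Missed-meal livers had 149, 326 and 276 in rescaled TPM, so replicate 1 lay within the 114 to 174 of fasted livers at 22 h.

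Serpina7, thyroxine-binding globulin, was called in none of the 11 pairs and had a wide spread within groups, for example 26.7, 14.4 and 79.3 CPM in fasted livers at 14 h and 53.5, 31.8 and 96.0 CPM in calorie-restricted ones. Its group means lay between 12.9 CPM (fasted, 6 h) and 60.4 CPM (calorie restriction, 14 h). Serpina11, a clade A member, was 61.6, 87.3 and 75.9 CPM ad libitum and 33.4, 46.7 and 35.1 CPM fasted at 14 h, without overlap (-0.96 ± 0.23 (SE), adjusted p = 0.00292). At 22 h it was 69.8, 54.1 and 77.4 against 48.1, 42.5 and 32.8 CPM (-0.71 ± 0.23 (SE), adjusted p = 0.0394), and that call was lost without each of 5 of the 6 libraries in turn, all but ad libitum replicate 2 (adjusted p = 0.0585 to 0.159). With the length trend removed neither was called (adjusted p = 0.097 and 0.384). In calorie restriction at 14 h Serpina11 was 61.7, 54.4 and 89.5 CPM (0.84 ± 0.23 (SE), adjusted p = 0.0112, against fasted), a call lost without calorie restriction replicate 3 or fasted replicate 1 or 3 (adjusted p = 0.0517 to 0.0999).

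Of the serpins that act on clotting, Serpina10 fell most steadily. It encodes the protein Z-dependent protease inhibitor, which inhibits activated factor X. Its level was 211, 199 and 272 CPM ad libitum and 77.1, 96.0 and 89.4 CPM fasted at 14 h, and 173, 184 and 199 and 94.9, 103 and 81.3 CPM at 22 h. Neither pair overlapped, with log2 changes of -1.38 ± 0.19 (SE), adjusted p = 1.43e-05, and of -0.99 ± 0.19 (SE), adjusted p = 0.00123. At 6 h the 129.9, 126 and 128 CPM of fasted livers also lay below the 189.8 and 176 CPM of ad libitum ones, but the change was not called (-0.51 ± 0.21 (SE), adjusted p = 0.223). Calorie restriction at 14 h had 134, 132 and 179 CPM, above all fasted libraries (0.76 ± 0.19 (SE), adjusted p = 0.00581). These 3 calls kept their side in each fit without 1 library.

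Serpina10 was also lower in calorie restriction than ad libitum at 22 h, with 91.1, 109.6, 167 and 93.9 CPM and no overlap (-0.68 ± 0.17 (SE), adjusted p = 0.0213). That call was lost without any 1 of ad libitum replicates 1, 2 and 3 and calorie restriction replicates 1 and 4 (adjusted p = 0.0531 to 0.0968), and without the libraries near another diet it was -0.89 (adjusted p = 0.00019). Without the libraries of another clock time the change was not called (-0.67, adjusted p = 0.0567), nor was it on the compared libraries alone (-0.67, adjusted p = 0.206). A missed meal lowered it too, to 106, 112 and 97 CPM from 137, 136 and 196 CPM (-0.57 ± 0.19 (SE), adjusted p = 0.0426). The 196 CPM are those of fed replicate 3, which is nearest to another diet, and without it the change was -0.38 (adjusted p = 0.251). The call was also lost without any 1 of the 3 missed-meal libraries (adjusted p = 0.0882, 0.0719 and 0.164).

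Serpind1, heparin cofactor II, an inhibitor of thrombin, was 604, 655 and 758 CPM ad libitum and 322, 405 and 338 CPM fasted at 14 h. The groups were apart (-0.92 ± 0.23 (SE), adjusted p = 0.00412), and the call held without any 1 library. Calorie restriction had 579, 696 and 473 CPM at that hour (0.71 ± 0.23 (SE), adjusted p = 0.0287, against fasted), a call lost without calorie restriction replicate 1 or 2 or fasted replicate 1 or 3 (adjusted p = 0.0506 to 0.135) and with the length trend removed (0.111). Serpinc1, antithrombin, was called in none of the 11 pairs, with group means between 1928 and 2809 CPM. At 14 h fasted livers had 1974, 1996 and 2025 CPM and ad libitum ones 2986, 2618 and 2823, which did not overlap (-0.49 ± 0.23 (SE), adjusted p = 0.116).

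The serpins of fibrinolysis and complement changed less clearly. Serpinf2, the plasmin inhibitor alpha-2-antiplasmin, was 834, 1205 and 1109 CPM ad libitum and 415, 712 and 555 CPM fasted at 14 h and did not overlap, but was not called (-0.90 ± 0.34 (SE), adjusted p = 0.0515). Without the libraries near another diet it was -0.89 (adjusted p = 0.0404). It was called over the calorie restriction time course (adjusted p = 0.0113), with 223 and 394 CPM at 0 h and 1176, 1077 and 729 CPM at 14 h. Serping1, the C1 inhibitor, and Serpinf1, pigment epithelium-derived factor, were called in none of the 11 pairs, with group means of 383 to 803 and 476 to 728 CPM.

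Serpine2, protease nexin 1, which inhibits thrombin and urokinase, had at most 15.3 CPM in any liver. It was 4.07, 8.67 and 2.67 CPM ad libitum, 0.8, 2.63 and 2.30 CPM fasted and 7.43, 8.82 and 2.93 CPM in calorie restriction at 14 h. The fasted libraries lay below all others of that hour, narrowly so against ad libitum (-1.43 ± 0.50 (SE), adjusted p = 0.0351) and against calorie restriction (1.74 ± 0.50 (SE), adjusted p = 0.0152). The first call was lost without ad libitum replicate 2 (log2 change -0.82, adjusted p = 0.26), fasted replicate 1 (0.173) or fasted replicate 3 (0.0603), and the second without calorie restriction replicate 2 or fasted replicate 1 (0.0753 and 0.105). Over the fasting time course it changed (adjusted p = 0.0037): 13.0, 13.8 and 7.23 CPM at 6 h and 2.43, 1.77 and 4.79 CPM at 22 h, with all 6 h libraries above the later ones.

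**Figure D4:**
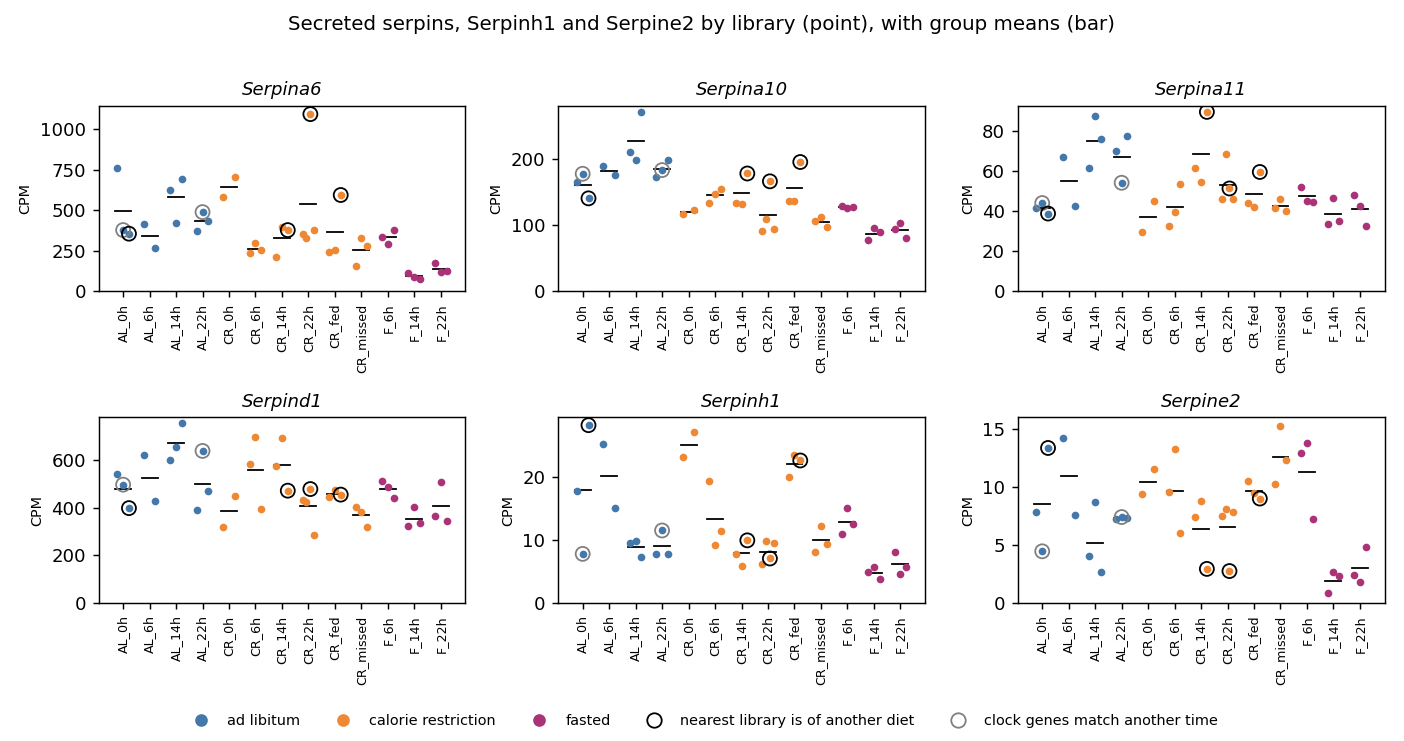
CPM of 4 secreted serpins of plasma, Serpinh1 and Serpine2 by group, with 1 point per library, bars at group means and axes from 0. AL, CR and F are ad libitum, calorie restriction and fasted, and rings mark the libraries that stand apart. Serpina6 is lowest in fasted livers at 14 h (112, 86.9 and 73.9 CPM), and Serpinh1 has its highest group mean in calorie restriction at 0 h (25.2 CPM).

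The Serpina3 copies correspond to human alpha-1-antichymotrypsin, an acute-phase protein, and include the contrapsins of mouse plasma. Serpina3k, the most abundant of them, was 7424, 3871 and 8453 CPM ad libitum and 3111, 3507, 2575 and 3313 CPM in calorie restriction at 22 h. The groups were apart but the change was not called (-1.07 ± 0.36 (SE), adjusted p = 0.0728). Against fasting at 6 h it was 2577, 2279 and 3753 CPM against 7539, 7810.2 and 4307 CPM, also apart and not called (-1.19 ± 0.39 (SE), adjusted p = 0.0605). DESeq2 called both (adjusted p = 0.0366 and 0.0224). Summed over the copies, Serpina3 counts changed by -1.01 ± 0.34 (SE), adjusted p = 0.0684, in the latter pair and were called in none of the 11.

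Serpina3n was 499.6, 542 and 552 CPM in fasted livers at 14 h and 560.2, 715 and 257 CPM at 22 h, against 251, 494 and 327 and 258, 247 and 281 CPM ad libitum. All 3 fasted libraries were above the ad libitum ones at 14 h, by little, and not so at 22 h. Neither change was called (0.57 ± 0.40 (SE), adjusted p = 0.312, and 0.96 ± 0.40 (SE), adjusted p = 0.113). Without fasted replicate 3 at 22 h, which held 257 CPM, the change was 1.29 (adjusted p = 0.0397). Serpina3c and Serpina3m were called in none of the 11 pairs, Serpina3c at 1.28 to 5.81 CPM and Serpina3m at 281 to 751 CPM. Without the libraries near another diet, the log2 change of Serpina3m in calorie restriction against fasting at 14 h was 0.81 (adjusted p = 0.0367).

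The pair Serpina3f and Serpina3g had low levels and rose together after a missed meal. Serpina3g, which unlike most clade A members lacks a secretion signal and acts inside cells, was 3.13, 2.96 and 3.55 CPM in fed and 6.89, 9.69 and 9.87 CPM in missed-meal livers. Serpina3f was 1.51, 1.55 and 1.55 and 2.74, 4.68 and 6.57 CPM. Neither gene's groups overlapped (1.46 ± 0.43 (SE), adjusted p = 0.023 for Serpina3g, and 1.60 ± 0.50 (SE), adjusted p = 0.031 for Serpina3f). Both calls were lost without each single library of the comparison except missed-meal replicate 1 (adjusted p = 0.0527 to 0.0837 and 0.0661 to 0.169). Without the libraries near another diet, Serpina3f was no longer called (1.62, adjusted p = 0.0667). Serpina3g was also lower in calorie restriction than in fasting at 6 h, 1.70, 3.09 and 5.04 against 10.4, 7.82 and 9.55 CPM with no overlap (-1.49 ± 0.43 (SE), adjusted p = 0.0299), and this was lost without any 1 of the libraries but calorie restriction replicate 3 (adjusted p = 0.0547 to 0.177).

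Serpinh1 encodes HSP47, the collagen chaperone of the endoplasmic reticulum. It was 20.1, 23.6 and 22.7 CPM in fed and 8.15, 12.3 and 9.43 CPM in missed-meal livers, well apart (-1.15 ± 0.32 (SE), adjusted p = 0.0176), a call lost without fed replicate 2 or missed-meal replicate 1 or 3 (adjusted p = 0.0545 to 0.0771). Over the calorie restriction time course it was 23.2 and 27.2 CPM at 0 h, 19.4, 9.27 and 11.4 at 6 h, 7.81, 5.82 and 9.96 at 14 h and 6.18, 9.87, 7.07 and 9.60 at 22 h, with both 0 h libraries above all later ones (adjusted p = 0.00111). Fasted livers had 11.0, 15.1 and 12.6 CPM at 6 h, 4.91, 5.64 and 3.79 at 14 h and 8.15, 4.56 and 5.63 at 22 h, and the 6 h libraries lay above the rest (adjusted p = 0.0203). At 14 h the 9.48, 9.81 and 7.36 CPM of ad libitum livers were above the fasted ones (-0.89 ± 0.33 (SE), adjusted p = 0.0493), a call lost without any 1 of the 6 libraries (adjusted p = 0.0578 to 0.171).

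A list of 15 genes held collagens, the clients of this chaperone, and collagen processing genes. None of them was called after a missed meal. At 14 h of fasting 2 of the 15 were higher, Col4a2 (2.00 ± 0.27) and Col4a1 (1.64 ± 0.26), both chains of basement membrane collagen. That count is near the 11.8% of all genes called higher in this comparison. Genes of protein folding and export in the endoplasmic reticulum moved with Serpinh1 after the missed meal: 9 of 21 were lower and 0 higher (6.13% and 6.34% of all genes), with a median of -0.63 against -0.011 over all genes. They included Hspa5 (-1.57 ± 0.44), the main chaperone of that compartment, and Pdia6 (-1.41 ± 0.34), a disulphide isomerase. In the same comparison 5 of 7 erythroid markers were higher, none of them at 0 (4672 to 14422 CPM in sum against 947 to 2342), as were 4 of 12 sinusoidal endothelial markers (394 to 416 against 229 to 250.1 CPM). The 12 stellate and fibroblast markers summed to 533 to 605 CPM against 407 to 455. Their largest called changes were in Hgf, Rgs5 and Dcn, higher, and Des, lower. The part of these markers in the changes of Serpina3f, Serpina3g, Serpinb6a, Serpina10 and Serpinh1 was not tested.

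Clade B serpins lack a secretion signal and protect the cell's own interior from proteases. Serpinb1a, an inhibitor of neutrophil elastase and cathepsin G, was high in ad libitum livers at 6 and 14 h (28.9 and 21.9 CPM, and 33.5, 16.5 and 40.9 CPM). In rescaled TPM, ad libitum livers had 9.46, 13.9 and 4.24 at 0 h and 4.81, 11.7 and 5.72 at 22 h, against 23.7 and 17.8 at 6 h. The lowest ad libitum value at 22 h lay below the 4.95 of calorie restriction replicate 3 at that hour. Calorie-restricted livers had 2.68 and 1.74 CPM at 0 h, 5.86, 5.84 and 5.89 at 6 h, 6.41, 6.96 and 11.9 at 14 h and 1.5, 2.63, 6.11 and 2.21 at 22 h. Fasted livers had 46.2, 14.1 and 39.9 CPM at 6 h, 14.9, 7.67 and 7.80 at 14 h and 18.5, 5.01 and 18.2 at 22 h. Calorie-restricted libraries at 6 h lay below all fasted and all ad libitum ones of that hour.

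Serpinb1a was lower in calorie restriction than in fasting at 6 h (-2.51 ± 0.53 (SE), adjusted p = 0.00342) and at 22 h (-2.14 ± 0.49 (SE), adjusted p = 0.0048, with overlap through 1 fasted library at 5.01 CPM and replicate 3 of calorie restriction at 6.11 CPM), and both calls held without any 1 library. Against ad libitum, calorie restriction gave -2.11 ± 0.56 at 6 h and -2.34 ± 0.64 at 0 h, neither called (adjusted p = 0.861 and 0.0944). Fitted on the compared libraries alone, the change at 6 h was called (adjusted p = 0.0205). Without the libraries near another diet, the change was -2.68 (adjusted p = 0.0134) at 0 h, -2.16 (adjusted p = 0.027) at 14 h and -2.10 (adjusted p = 0.00513) at 22 h. It fell with fasting at 14 h (-1.58 ± 0.52 (SE), adjusted p = 0.0248), a call lost without ad libitum replicate 1 or 3, fasted replicate 2 or 3 (adjusted p = 0.0674 to 0.116) or with the length trend removed (0.0799). Of 10 neutrophil markers 7 could be tested, and none was called in the 11 pairs but Ngp, lower in calorie restriction than in fasting at 22 h (0.329 to 10.1 CPM in sum over the markers, none of them at 0, against 2.43 to 5.87). Their part was not tested.

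Serpinb8, an inhibitor of furin, was 7.77, 8.20 and 10.6 CPM ad libitum and 3.68, 2.47 and 1.87 CPM fasted at 14 h, without overlap (-1.72 ± 0.40 (SE), adjusted p = 0.00242), and the call held without any 1 library. Serpinb6a was 15.7, 9.41 and 13.4 CPM in fed and 22.3, 18.3 and 35.1 CPM in missed-meal livers. The groups were apart (0.98 ± 0.32 (SE), adjusted p = 0.0396), but the call was lost without any 1 of the 3 fed libraries or missed-meal replicate 1 or 3 (adjusted p = 0.0512 to 0.27). The call was also lost without the libraries near another diet (1.02, adjusted p = 0.0794). Serpinb9, an inhibitor of granzyme B, and Serpinb6b were called in none of the 11 pairs, at 4.04 to 22.3 and 0.491 to 3.40 CPM. The last 2 members tested, Serpini1 (neuroserpin) and Serpina9, stayed at or below 3.46 CPM and were called in none. Serpina9 was at 0 in all 3 fasted libraries at 14 h and at 22 h and had 0.857, 1.47 and 0.654 CPM in ad libitum ones at 14 h.

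**Figure D5:**
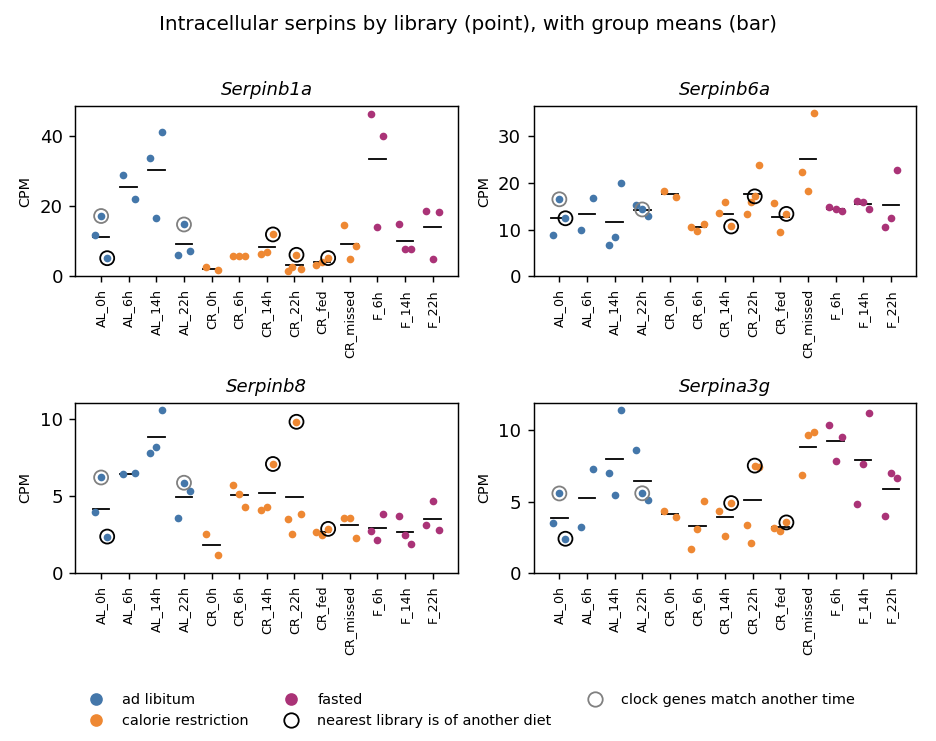
CPM of 4 serpins that act inside cells, by group, with 1 point per library, bars at group means and axes from 0. AL, CR and F are ad libitum, calorie restriction and fasted, and rings mark the libraries that stand apart. Serpinb1a is below 15 CPM in every calorie-restricted library and reaches 46.2 CPM in fasted livers at 6 h.

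Changes over time were tested within each diet. None of the 31 was called over the ad libitum time course (0.276% of all genes were), with 8 at an unadjusted p under 0.05 and 1 call by DESeq2. Without the 2 libraries whose clock genes were nearest to another time, 2 were called (3.68% of all genes). Over the calorie restriction course 4 were called, Serpinh1, Serpinf2, Serpina11 and Serpinb1a (20.6% of all genes). Without the libraries near another diet 7 were, and 25.5% of all genes. Over the fasting course 4 were called, Serpine2, Serpina6, Serpinh1 and Serpina1c (2.86% of all genes). Serpina1c was 5894, 7191 and 5221 CPM at 6 h and lower in all later fasted libraries (adjusted p = 0.0398). The fasting effect differed between hours in none of the 31 (0.0653% of all genes, 4 members at an unadjusted p under 0.05, 1 call by DESeq2), and the calorie restriction effect in none (0.442%, 0 at an unadjusted p under 0.05, 0 by DESeq2). A p that misses the threshold does not show that effects were equal.

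The proteases that serpins act on, and their cofactors, were read from the same fit. At 14 h of fasting 10 of 32 were called, 7 lower and 3 higher, with a median of -0.37 against -0.036 over all genes, of which 12.7% were lower and 11.8% higher. The share of higher genes in the list is thus near that of all genes. Among the lower were F11, clotting factor XI (-1.18 ± 0.34), and Hgfac, the protease that activates hepatocyte growth factor (-1.09 ± 0.26). Among the higher were Thbd, thrombomodulin (2.14 ± 0.50), and F8, clotting factor VIII (1.81 ± 0.40). The part of the endothelial markers in these values was not tested. Of 21 tested genes from a list of other protease inhibitors, 5 were lower and 0 higher (12.7% and 11.8% of all genes), among them Tfpi2 (-1.32 ± 0.33) and Kng1, kininogen (-0.88 ± 0.19). That list also holds Agt, a serpin by fold that the name rule leaves out. At 22 h, 3 of the 32 proteases and cofactors were higher and 0 lower, where 6.06% and 5.4% of all genes were: Ctsl, a lysosomal protease (1.03 ± 0.26), Pros1, protein S (0.92 ± 0.21), and F5, factor V (0.88 ± 0.25).

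Genes known as regulators of liver secretory genes were read in the same way. At 14 h of fasting 6 of 20 were called, 4 higher and 2 lower, where 11.8% and 12.7% of all genes were, so that the lower share is near that of all genes. Il6ra (1.55 ± 0.46) and Il1r1 (1.90 ± 0.38), receptors of the acute-phase cytokines, and Cebpd (1.55 ± 0.48), an acute-phase transcription factor, were higher, and Ghr, the growth hormone receptor, was lower (-1.2 ± 0.24). After a missed meal 3 were higher and 1 lower (6.34% and 6.13% of all genes), with Cebpb (1.5 ± 0.43) and Cebpd (1.52 ± 0.47) up and Foxa2 down (-0.84 ± 0.23). Across the 38 libraries the pairs of serpins with the highest correlation of log2 CPM were Serpina1b and Serpina1d (Pearson's r 0.90, and 0.95 after group means were removed), Serpina3c and Serpina3n (0.88 and 0.78), Serpind1 and Serpinf2 (0.85 and 0.86), and Serpina3f and Serpina3g (0.83 and 0.80). These are descriptions over libraries that share depth and scaling, and the first and last pairs also share reads.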

How the data were processed

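Total RNA of 38 mouse liver samples was sequenced as polyA-selected, non-directional libraries with paired reads of 150 bases, per the labels' protocols. The authors aligned the reads with Bowtie, allowing 2 mismatches, to Ensembl protein-coding genes (GRCm38) and estimated expected counts per gene with RSEM 1.2.3. The authors also deposited TPM rescaled with EBSeq, a signal whose column sums differ and which the labels' protocols describe as corrected for possible batch effects. No batch is named. The libraries carry no strand, so reads from overlapping genes cannot be told apart.

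Expected counts were rounded and scaled by TMM. The 13786 genes that passed filterByExpr were tested in 1 fit over all 38 libraries and 13 groups with edgeR 4.0.16 (R 4.3.3), by the quasi-likelihood F test with Benjamini-Hochberg adjustment over all genes. The fit covered 11 pairs of groups, 3 time courses and 2 tests of whether an effect differed between hours. CPM are counts relative to the TMM-scaled library total. The standard error is the log2 change divided by the square root of F. The log2 of the authors' rescaled TPM plus 1 was tested with limma 3.58.1 as an alternative, and DESeq2 1.42.0 as another. Sequences were aligned with MAFFT 7.526. Lists of other genes were counted in the same fit.

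The serpins, the gene lists and the marker lists were chosen with earlier results of these data known, so their choice is no independent support. Any serpin may be named. The fixed rule gives per-library values for serpins called without overlap whose mean reached 5 CPM in some group, and for the most abundant per length. The text departs from it: of the most abundant, some (Serpina1b and Serpina1d among them) are given by ranges, and values of Serpina3f and of some uncalled serpins (Serpina12, Serpina3n, Serpina7, Serpina9 and Serpinf2) were added after they were seen. From each other list at most 4 genes with the largest called changes are named. The script was tested on simulated data. The age field was not used, since it climbs in sample order. The values of 1 measured serpin are not reported here, though it enters the counts.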

Additional observations from a re-analysis of the deposited data

Results flagged for a closer look

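In the only group of 4 libraries, calorie restriction at 22 h, 4 serpins had 1 library whose gap to the nearest other exceeded the 95% critical value of Dixon's test. Serpina6 stood at 1093 CPM in replicate 3, above the other three. Serpinb9 stood at 10.6 CPM and Serpine2 at 2.74 CPM in the same replicate, and Serpinf2 at 264 CPM in replicate 4. Chance flags about 1 in 20 groups for each gene, and the genes share libraries. Replicate 3 is also the library of this group that was nearest to a library of another diet.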

How the results depend on the processing

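No called change of a serpin reversed its direction under any alternative run. Of the 32 called changes in the 11 pairs, 1 lost its call with DESeq2 size factors, 2 without a filter on low counts, 4 with limma on rescaled TPM, 0 with the DESeq2 test and 10 when only the compared libraries were fitted. The alternatives that drop libraries standing apart (4, 2 and 4 calls lost) and the one that removes the length trend (9 lost) were chosen after seeing the data. In fits without 1 library, 14 of the 32 kept the call in each. Fitting only the compared libraries gave 2 called serpins in fasted against ad libitum at 6 h, 1 in calorie restriction against ad libitum at 6 h and 1 at 22 h, 2 in calorie restriction against fasted at 14 h and 0 at 22 h, 1 over the calorie restriction time course and 1 in the test of whether the fasting effect differed between hours. With paralogs summed, calorie restriction against ad libitum at 22 h gave 1, calorie restriction against fasted at 6 h 1 and missed meal against fed 3, since summing leaves fewer genes to call. The DESeq2 test gave 1, 1 and 5 in calorie restriction against ad libitum at 0, 14 and 22 h, 1 over the ad libitum time course and 1 for the fasting effect between hours.

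Without the libraries near another diet, calorie restriction against ad libitum gave 2, 4 and 6 called serpins at 0, 14 and 22 h (2.59%, 3.26% and 14% of all genes). Missed meal against fed gave 2 (10.8%), the calorie restriction time course 7 (25.5%) and the fasting effect between hours 1 (0.204%). Without the libraries of another clock time, calorie restriction against ad libitum at 22 h gave 0 (2.78% of all genes) and the ad libitum time course 2 (3.68%). Without both kinds, fasted against ad libitum at 6 h gave 1, calorie restriction against ad libitum 4 at 14 h and 7 at 22 h, missed meal against fed 2, the ad libitum time course 2, the calorie restriction time course 8 and the fasting effect between hours 1. With the length trend removed, fasted against ad libitum gave 6 at 14 h and 2 at 22 h. Of the 13786 genes, 2334 and 1054 were then called at these hours. The cause of these shifts was not tested.

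Leaving out 1 library at a time gave 0 to 0 called serpins in fasted against ad libitum at 6 h, 6 to 9 at 14 h and 3 to 5 at 22 h. Calorie restriction against ad libitum gave 0 to 1, 0 to 0, 0 to 1 and 0 to 5 at 0, 6, 14 and 22 h, and calorie restriction against fasted 1 to 3, 2 to 7 and 2 to 4 at 6, 14 and 22 h. Missed meal against fed gave 0 to 2. The time courses gave 0 to 1 (ad libitum), 1 to 7 (calorie restriction) and 1 to 4 (fasted), and the effects between hours 0 to 0 each. The 6 calls at 14 h of fasting were found without fasted replicate 3, the 5 at 22 h of calorie restriction without its replicate 3, and the 0 after a missed meal without missed-meal replicate 3. Over the calorie restriction time course, 1 was called without replicate 1 at 0 h and 7 without replicate 3 at 22 h. Where a fit left 1 library in a group (ad libitum at 6 h, calorie restriction at 0 h, and ad libitum at 0 h without both kinds of library), that library is assumed to vary like the other groups.

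No label says that replicate numbers pair samples, and deviations of same-numbered libraries correlated by 0.039 on average (lowest -0.32, highest 0.61), those of different numbers by -0.018, so the samples were not treated as paired. As a hint from the data, not the design, 22 of 38 libraries correlated best with their own number, and the 4 libraries near another diet all carry the number 3. With the replicate number as a block, fasted against ad libitum gave 0, 11 and 4 called serpins at 6, 14 and 22 h, calorie restriction against ad libitum 0, 0, 0 and 2, calorie restriction against fasted 3, 6 and 2, and missed meal against fed 5, with time courses of 0, 4 and 4 and no call for effects between hours. Serpinh1 at 14 h of fasting (adjusted p = 0.0548) and Serpina1e in calorie restriction against fasted at 22 h (adjusted p = 0.0571) lost their calls under the block. Serpina9, with 324 counts in all, rests on few counts.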
